A study of Rattus norvegicus with 16 samples.

Results

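The cytosolic ribosomal protein genes are described here in rat soleus, a slow postural muscle of the calf. Members were taken by symbol from the platform annotation: probe sets with a single symbol made of Rpl or Rps and a number, or Rplp0, Rplp1, Rplp2 or Rpsa, without the Rps6k kinases and without pseudogenes marked by a final ps. Each gene was represented by its probe set of highest mean. This gave 48 genes out of 14217 genes with a single symbol, of which 33 encode large subunit proteins and 15 small subunit proteins. Paralogs, which are second genes for a ribosomal protein, made up 6 of the 48: Rpl3l, Rpl7l1, Rpl26l1, Rpl39l1, Rps27l and Rps4y2. Rplp1, Rplp2, Rps27a and other ribosomal protein genes had no probe set with a single symbol and were not analysed here, and 36 further ribosomal probe sets that carry several symbols were kept apart.

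The animals were female rats of 2 lines bred from N:NIH stock by selection on treadmill running, at generation 16. HCR rats (high capacity runners) descend from the best runners and LCR rats (low capacity runners) from the poorest. In each line 4 rats ran uphill intervals at an incline of 25 degrees, 1.5 hours a session on 5 days per week for 8 weeks, and 4 age-matched rats stayed sedentary and were handled alike apart from the training and the oxygen uptake tests. Tissue came from rats of about 7 months, and trained rats had rested for 48 hours since their final session. Each array held the RNA of 1 rat. The lines stand for generations of selection and breeding, so no single allele separates them.

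A ribosome is built from a small subunit, which reads the mRNA, and a large subunit, which joins amino acids. Its proteins are made in near equal numbers, and most of their mRNAs begin with a run of pyrimidines, the 5′ terminal oligopyrimidine tract, through which the mTORC1 kinase pathway controls their translation. In muscle, ribosome number sets how much protein can be made, and training and loading are known to act on ribosome production. The design asks how these mRNAs differ between the lines, how they differ after training in each line, and whether that difference depends on the line.

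The annotated start of some ribosomal protein genes shows the pyrimidine tract. In the RefSeq table of assembly GRCr8, 43 of the 48 members had an entry. The stretches printed run from 10 bases before the annotated start to 20 bases from it onward, on the gene's strand, and capitals mark a run of pyrimidines that begins with C and goes on for at least 6 more. The first 4 genes, Rpl19, Rplp0, Rpl35a and Rpl37a, carry the tract at the annotated start, Rpl5 carries it just upstream, Rps6, Rps9 and Rpl3 have none in this stretch, and Rpl3l is the muscle paralog of Rpl3. They are shown because the results below turn on most of them.
Rpl19 (chr10:83519054-83519083, plus strand): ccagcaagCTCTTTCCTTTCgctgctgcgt
Rplp0 (chr12:46718371-46718400, minus strand): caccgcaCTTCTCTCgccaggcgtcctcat
Rpl35a (chr11:81235002-81235031, minus strand): tcttgCCTTCCTCTTTCCgccatcttggcg
Rpl37a (chr9:81748081-81748110, plus strand): cccgttgcgtCTCTTCCTCTTCgggcttgg
Rpl5 (chr14:1995206-1995235, minus strand): CTTTCCCacgtcgcttgcgtcctggaggtg
Rps6 (chr5:106420521-106420550, minus strand): ctcctaggcggtcggctgtgtcaagatgaa
Rps9 (chr1:74430418-74430447, minus strand): cggccacgtttctctttgtcacgggcctga
Rpl3 (chr7:113507971-113508000, minus strand): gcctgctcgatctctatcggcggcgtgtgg
Rpl3l (chr10:14258436-14258465, plus strand): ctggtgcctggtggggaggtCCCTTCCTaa

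Such a tract lay in this stretch in 23 of the 43 matched members (53.5%), against 12.4% of all 33469 promoter windows in the table. With the stricter form, a C as the first base of the annotated start followed by at least 4 pyrimidines, the count was 12 of 43 (27.9%) against 2.63% of windows. Other motifs were searched on both strands of windows from 250 bases before to 50 after the start. CCGGAAG, the core bound by ETS factors such as GABP, was in 23.3% of members and 8.75% of all windows. GGGCGG, the core bound by Sp1, was in 60.5% and 33.1%. AAGATGGC, bound by YY1, was in 9.3% and 3.17%, and TATAAA was in 14% and 14.2%. A match is only a description of these letters, and the annotated start may lie some bases from the start used in soleus.

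All values are log2 signals as deposited, normalized across arrays, so each difference is read against the array as a whole. The members were among the brightest probe sets: 32 of 48 exceeded the 99th percentile (12.12) of the 31042 probe sets tested, 39 had a mean of at least 10, and 4 (Rpl28, Rpl30, Rpl39l1 and Rps13) lay below the 40th percentile (5.61). A probe's brightness also depends on its sequence, so these levels rank probe sets rather than genes. The tissue label fitted the fibre markers. Of 13 slow fibre genes, 11 lay above the 99th percentile, and Myh7, the slow myosin heavy chain, had a median of 14.46. One array differed: on HCR trained 3 Myh7 read 12.05, the lowest of the 16 arrays. There the 13 slow fibre markers averaged -2.13 from their means over the 16 arrays, and 13 fast fibre markers 2.44. By group the fast marker mean ranged from -0.83 to 0.236 in HCR sedentary and 0.241 to 2.44 in HCR trained rats. It ranged from -1.10 to -0.098 in LCR sedentary and -0.48 to 0.11 in LCR trained rats.

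Members varied together from array to array. Their SD within groups ranged from 0.065 to 0.50 with a median of 0.12, against 0.14 for all probe sets. Rpl3, Rps27l and Rpl13a varied most, and Rpl37a, Rps29 and Rpl27 least. The first principal component of the 48 scaled genes held 59.7% of their variance, and 58.1% once group means were removed.

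One array led this shared variation. On HCR sedentary 2 the 48 genes averaged 0.31 above their means over the 16 arrays, against 0.015 to 0.067 on the other HCR sedentary arrays, and it was the highest of all arrays for 34 of the 48 genes. LCR trained 2 came next, at 0.17, with the other LCR trained arrays between -0.11 and -0.011. The 4 HCR trained arrays lay between -0.13 and -0.067, and the LCR sedentary arrays between -0.051 and 0.047. So the HCR groups did not overlap in this mean, and the LCR groups did.

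**Figure D1:**
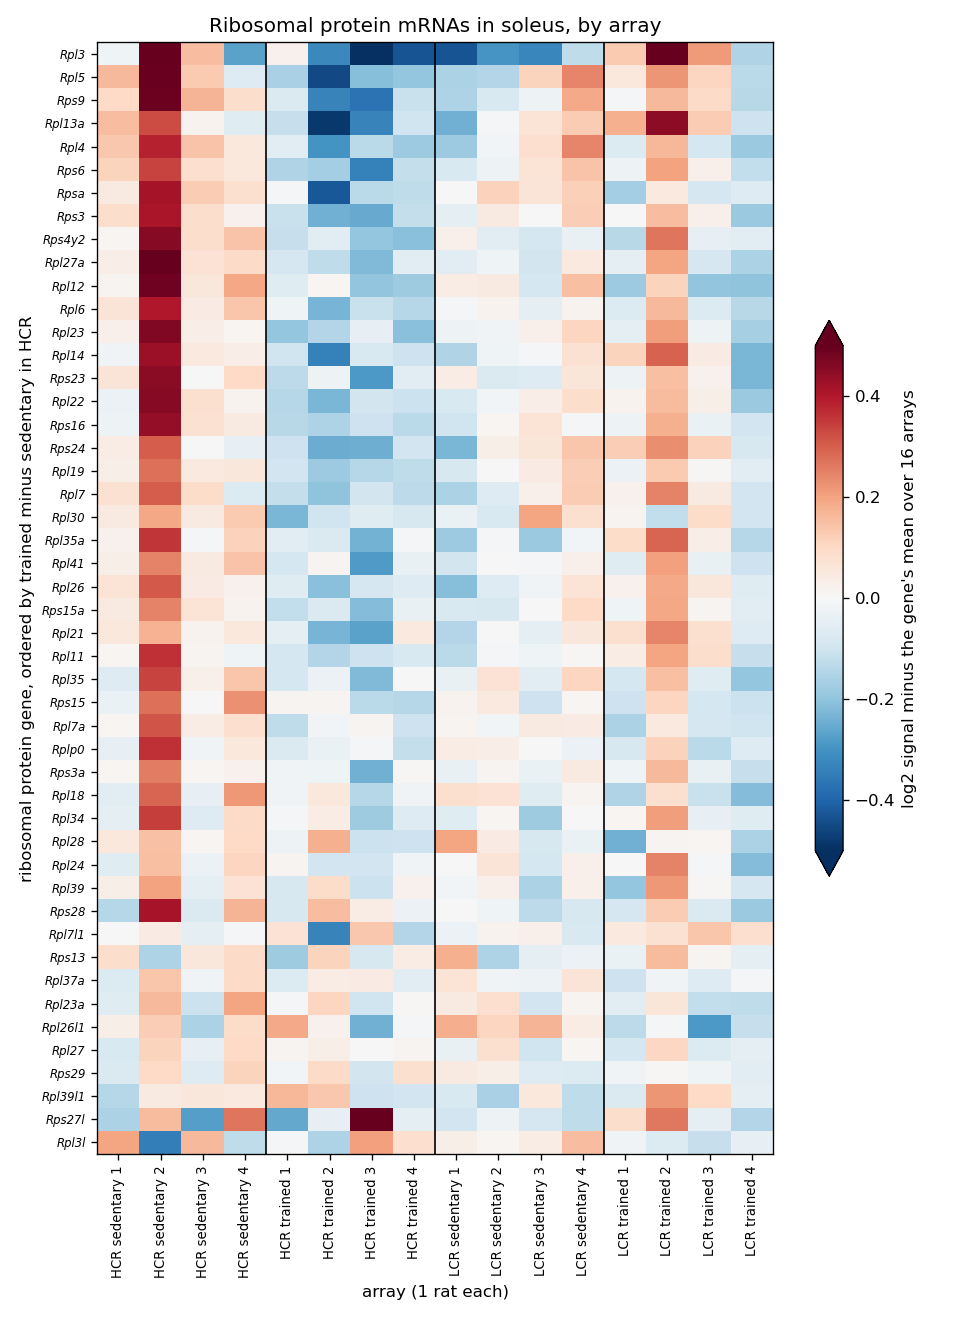
Heat map of the 48 ribosomal protein genes (rows, ordered by the trained minus sedentary difference in HCR) on 16 arrays (columns, 1 rat each, 4 per group), coloured by log2 signal minus the gene's mean over all arrays and capped at 0.5 either way. HCR sedentary 2 is the highest array for 34 of 48 genes, and the HCR trained columns are mostly below the mean.

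Some markers of other cells were high on the same arrays, and others were not. The mean of 14 fibroblast and matrix markers was 1.90 above its average on HCR sedentary 2, -0.34 to 0.053 on the other HCR sedentary arrays, and 1.23 on LCR trained 2. By group it ranged from -0.34 to 1.90 in HCR sedentary, -0.69 to -0.39 in HCR trained, -0.60 to 0.099 in LCR sedentary and -0.29 to 1.23 in LCR trained rats. The mean of 20 macrophage and leukocyte markers behaved likewise, with 1.20 on HCR sedentary 2 and 0.49 on LCR trained 2. Its range was -0.18 to 1.20 in HCR sedentary, -0.61 to -0.025 in HCR trained, -0.38 to 0.035 in LCR sedentary and 0.00052 to 0.49 in LCR trained rats.

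A control measure of the arrays differed too. The beta-actin control index, the 3′ minus the middle control probe set, was 0.38 on HCR sedentary 2 and 1.32 to 1.59 on the other HCR sedentary arrays. It ranged from 1.57 to 2.37 in HCR trained, 1.33 to 2.07 in LCR sedentary and 1.06 to 1.36 in LCR trained rats, with the lowest of the last group on LCR trained 2. The part of these markers and of this index in the ribosomal values was not tested. In whole muscle, fewer cells of a type and less RNA per cell cannot be told apart.

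**Figure D2:**
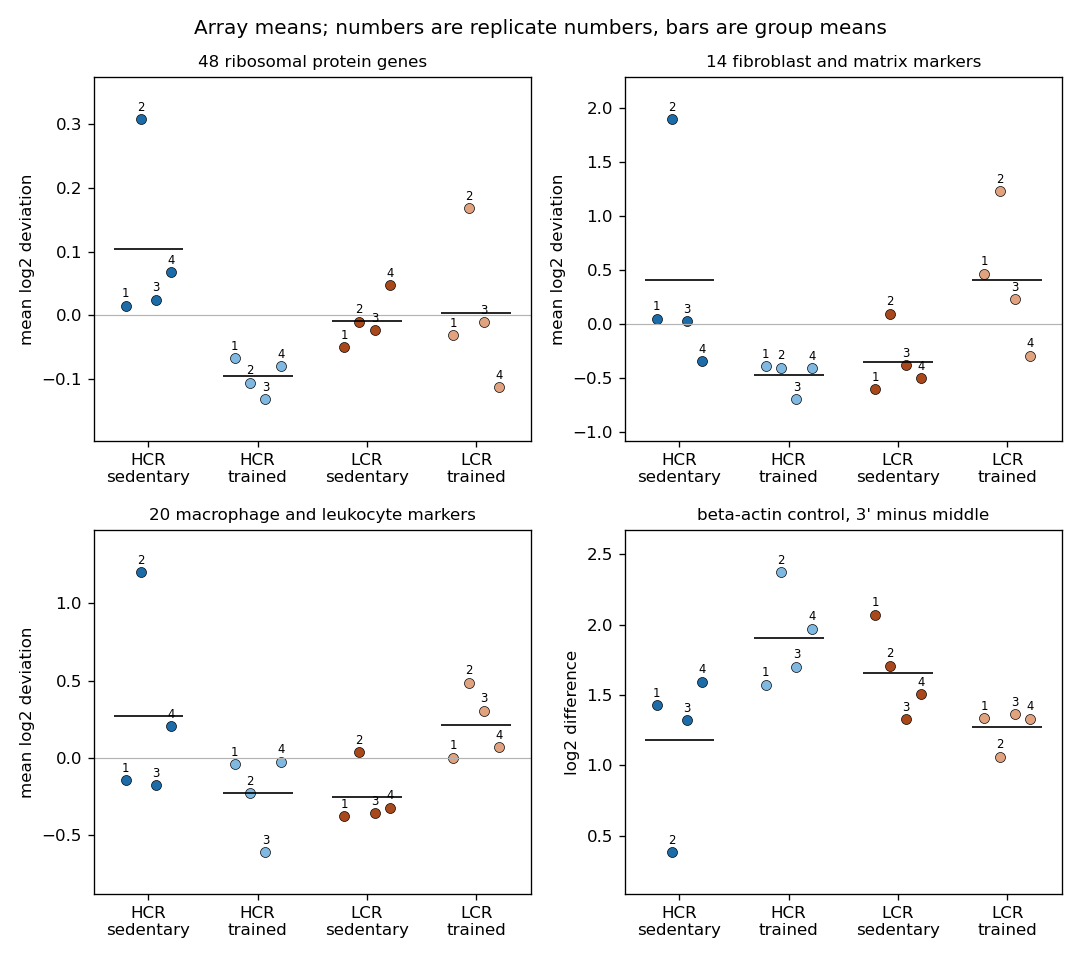
Mean log2 deviation of the 48 ribosomal protein genes, of 14 fibroblast and matrix markers and of 20 macrophage and leukocyte markers from their averages over 16 arrays, and the beta-actin control index (log2), by group. Each point is 1 array with its replicate number and bars are group means; HCR sedentary 2 is the highest point in the first 3 panels and the lowest in the last.

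Training in HCR rats went with lower ribosomal protein mRNAs across most of the set, by small amounts that did not pass the test gene by gene. Of the 48 genes, 45 were lower in trained rats (93.8%, against 48.9% of all probe sets), with a median difference of -0.21 against 0.0044 for all probe sets. All 42 members that are not paralogs were lower. No member passed at an adjusted p under 0.05 in limma, where 0.187% of all probe sets did. At an unadjusted p under 0.05, 29 members were lower (60.4%, against 7.24% of all probe sets) and 0 higher (against 10.5%). In 26 members every trained rat lay below every sedentary rat (54.2%, against 2.67%), and in 0 was the order turned (against 4.94%).

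The small subunit gave the smallest adjusted p-values. Rps6, whose protein is phosphorylated by the S6 kinases downstream of mTORC1, read 12.99, 13.22, 12.96 and 12.93 in HCR sedentary rats and 12.73, 12.71, 12.54 and 12.76 in HCR trained rats. The groups did not overlap, and HCR trained 3 was the lowest. The difference was -0.34 (SE 0.084, a level of 0.79 times), with limma's adjusted p = 0.0807.

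Rps9, a small subunit protein of the family of bacterial S4, read 12.37, 12.76, 12.44 and 12.35 in sedentary and 12.19, 11.93, 11.90 and 12.15 in trained HCR rats. Here too every trained rat was lower, with HCR sedentary 2 well above the rest. The difference was -0.43 (SE 0.11, adjusted p = 0.0808 in limma).

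Rps3, which lies at the entry of the mRNA channel, read 12.12, 12.44, 12.12 and 12.05 in sedentary and 11.92, 11.79, 11.78 and 11.91 in trained HCR rats, a difference of -0.33 (SE 0.088, adjusted p = 0.0956 in limma). Rpsa, also known as the laminin receptor precursor, read 12.48, 12.85, 12.56 and 12.52 in sedentary and 12.43, 12.01, 12.30 and 12.31 in trained rats, a difference of -0.34 (SE 0.093, adjusted p = 0.105 in limma). Neither gene's groups overlapped. The 2 other Rpsa probe sets differed by -0.44 and -0.24. Over all small subunit genes 14 of 15 were lower, with a median of -0.25, and the exception was the paralog Rps27l.

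In the large subunit 31 of 33 genes were lower, with a median of -0.20. Rpl19, which forms a bridge to the small subunit, read 13.11, 13.35, 13.12 and 13.13 in sedentary and 12.98, 12.89, 12.93 and 12.95 in trained HCR rats. Its arrays spread little apart from HCR sedentary 2, and the groups did not overlap. The difference was -0.24 (SE 0.066, adjusted p = 0.108 in limma).

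Rpl5 and Rpl11 bind 5S rRNA and, outside the ribosome, the p53 regulator Mdm2. Rpl5 read 12.77, 13.11, 12.74 and 12.55 in sedentary and 12.45, 12.16, 12.40 and 12.42 in trained HCR rats, a difference of -0.43 (SE 0.12, adjusted p = 0.112 in limma). Rpl11 read 12.68, 13.04, 12.69 and 12.65 against 12.58, 12.52, 12.57 and 12.60, a difference of -0.20 (SE 0.085, adjusted p = 0.246 in limma). Both pairs of groups stood apart without overlap, but for Rpl11 HCR sedentary 2 carried much of the distance, and the difference was -0.10 without it.

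Rplp0, the base of the acidic stalk that recruits elongation factors, was the only stalk member measured. It read 12.88, 13.29, 12.90 and 12.98 in sedentary and 12.85, 12.89, 12.92 and 12.80 in trained HCR rats. The groups overlapped and a single sedentary rat was high. The difference was -0.15 (SE 0.082, adjusted p = 0.368 in limma) and -0.055 without HCR sedentary 2.

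At the other end, several core genes hardly differed. Rps29 differed by -0.00015 (95% interval -0.13 to 0.13) and Rpl27 by -0.0095 (-0.14 to 0.12), and these genes also varied least within groups. Rpl37a differed by -0.049 and Rpl23a by -0.047. All 4 probe sets were bright, with means of 11.53 to 13.36.

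**Figure D3:**
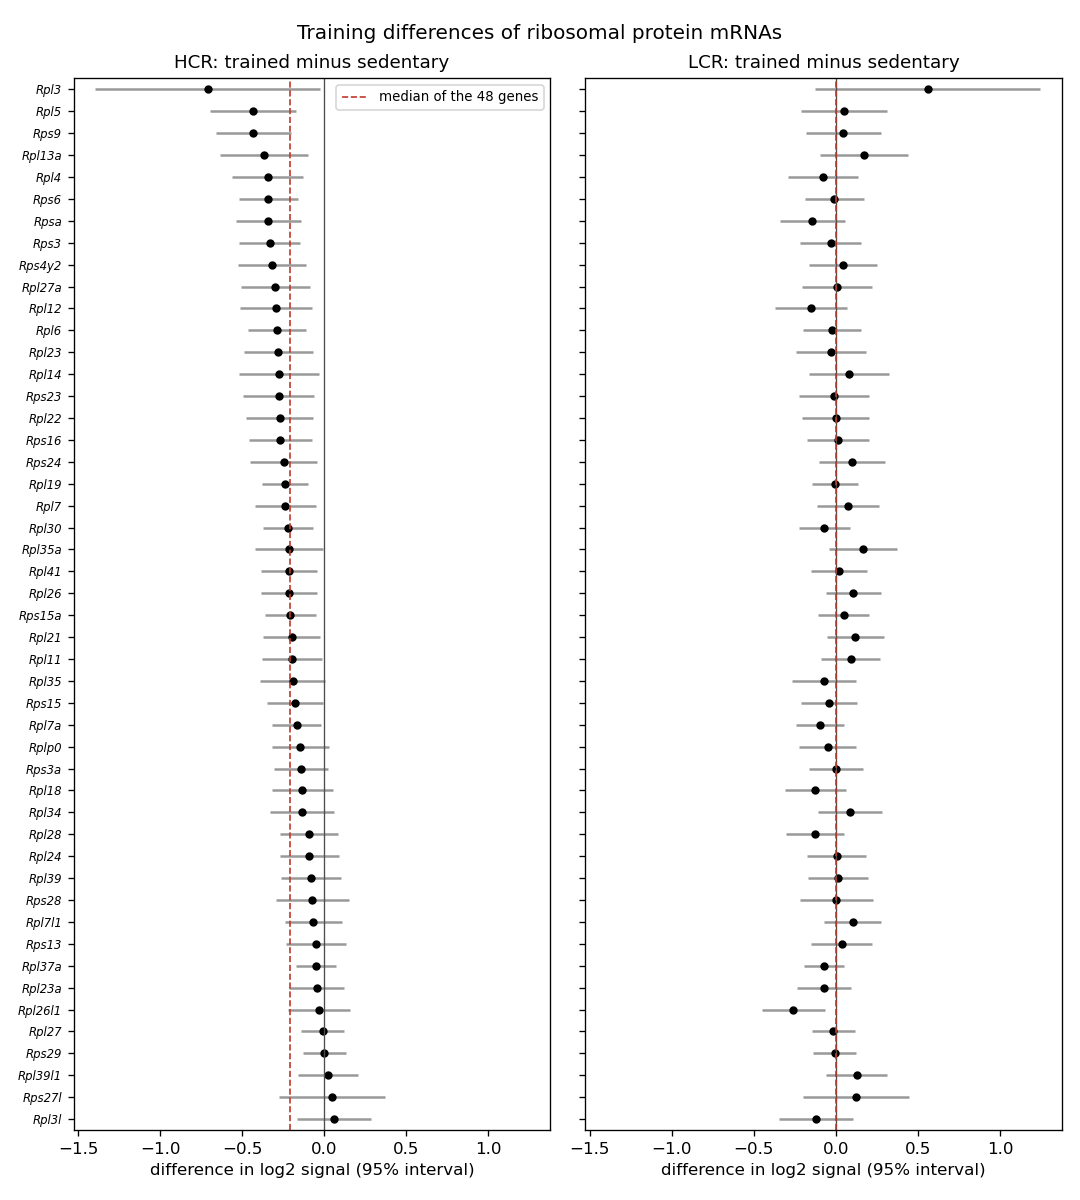
Trained minus sedentary difference in log2 signal for each of the 48 genes in HCR (left) and LCR (right), with 95% intervals from the model over 16 arrays; the dashed red line is the median of the 48 genes. In HCR 45 of 48 points lie below 0 with a median of -0.21, and in LCR 23 of 48 with a median of 0.0031.

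Leaving out the array that stood apart gave smaller differences. Without HCR sedentary 2, 42 of 48 members were lower, the median was -0.15, and 17 were lower at an unadjusted p under 0.05 against 29 with it. Without that array and HCR trained 3, which had the low slow fibre markers, 42 were lower with a median of -0.12. Rps6 then differed by -0.23 and Rps9 by -0.29. Fitting the beta-actin index alongside the groups gave a median of -0.072. In the same comparison all 20 macrophage and leukocyte markers (median -0.50) and all 14 fibroblast and matrix markers (median -0.83) were lower. Slow fibre markers were lower in 12 of 13 genes (median -0.60), and fast fibre markers were higher in 10 of 13 (median 0.28). The part of these markers was not tested.

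Tract and no tract gave like medians. The split rests on the annotated start, which may lie some bases from the start used in soleus. Genes can thus fall on the wrong side, and like medians cannot show whether the tract matters. Members with a pyrimidine tract near the start had a median difference of -0.22 (n = 23) and those without one -0.21 (n = 20). The 12 genes with the tract at the annotated start had a median of -0.16, and all 12 were lower.

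In LCR rats the members were split in direction after training. Of the 48 genes 23 were lower (47.9%, against 58.4% of all probe sets) and 25 higher, with a median of 0.0031 against -0.024 for all probe sets. No member passed in limma (0.00322% of all probe sets did), and at an unadjusted p under 0.05 the only member was Rpl26l1, which was lower (2.08%, against 6.22% of all probe sets lower and 3.54% higher). The median moved to -0.052 without LCR trained 2 and to 0.049 without LCR trained 4, so its sign rested on single rats. In the same comparison 19 of 20 macrophage and leukocyte markers (median 0.51) and 14 of 14 fibroblast and matrix markers (median 0.68) were higher; their part was not tested.

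The genes that were lower in trained HCR rats read as follows in LCR. Rps6 read 12.80, 12.85, 12.95 and 13.02 in LCR sedentary and 12.85, 13.08, 12.90 and 12.76 in LCR trained rats, a difference of -0.0082 (SE 0.084, adjusted p = 0.982 in limma). Rps9 read 12.11, 12.19, 12.24 and 12.46 against 12.26, 12.43, 12.36 and 12.13, a difference of 0.045 (SE 0.11). In both genes the trained rats spread across the sedentary range. For Rpsa the training difference was below 0 in both lines. It read 12.43, 12.55, 12.50 and 12.55 in sedentary and 12.27, 12.48, 12.35 and 12.37 in trained LCR rats, a difference of -0.14 (SE 0.093, adjusted p = 0.631 in limma).

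Rpl35a, which is mutated in some patients with Diamond-Blackfan anaemia, read 12.04, 12.22, 12.04 and 12.21 in LCR sedentary and 12.32, 12.52, 12.26 and 12.08 in LCR trained rats. One trained rat overlapped the sedentary group. The difference was 0.17 (SE 0.098, adjusted p = 0.598 in limma) and 0.092 without LCR trained 2. Of 11 listed Diamond-Blackfan genes 5 were measured here, namely Rpl5, Rpl11, Rpl26, Rpl35a and Rps24. Their training differences were all below 0 in HCR (-0.43 to -0.20) and all above 0 in LCR (0.049 to 0.17), with 0 passing in either line. Of all 48 members 45 were below 0 in HCR and 25 above 0 in LCR, so the HCR count sets these genes little apart.

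Rpl3 had the largest training difference of any member in both lines, with opposite signs, and the largest spread. Its protein reaches toward the peptidyl transferase centre of the large subunit. It read 11.27, 12.90, 11.44 and 11.02 in HCR sedentary, 11.31, 10.96, 10.65 and 10.86 in HCR trained, 10.86, 10.99, 10.96 and 11.16 in LCR sedentary, and 11.42, 12.16, 11.50 and 11.14 in LCR trained rats. HCR sedentary 2 and LCR trained 2 were far above all others, and the groups overlapped within both lines.

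The Rpl3 difference was -0.71 in HCR (SE 0.32, adjusted p = 0.267 in limma) and 0.56 in LCR (SE 0.32, adjusted p = 0.590). Without HCR sedentary 2 the HCR value was -0.30, and without LCR trained 2 the LCR value was 0.36. A second Rpl3 probe set, which can bind related sequences, differed by -0.22 and 0.12.

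Rpl3l encodes the paralog that replaces Rpl3 in ribosomes of heart and skeletal muscle. It read 12.37, 11.83, 12.33 and 12.05 in HCR sedentary, 12.17, 12.02, 12.38 and 12.26 in HCR trained, 12.20, 12.18, 12.21 and 12.33 in LCR sedentary, and 12.16, 12.10, 12.06 and 12.13 in LCR trained rats. Its lowest array was HCR sedentary 2, where Rpl3 was highest. In LCR every trained rat lay just below every sedentary rat. The training difference was 0.061 in HCR (SE 0.11, adjusted p = 0.811 in limma) and -0.12 in LCR (SE 0.11, adjusted p = 0.730), and the HCR value was -0.045 without HCR sedentary 2.

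Over the 16 arrays Rpl3 and Rpl3l had Pearson's r = -0.62 (permutation p = 0.0144, adjusted 0.0288 over both coefficients) and Spearman's rho = -0.41 (permutation p = 0.111, adjusted 0.111), two-sided. Without HCR sedentary 2 and LCR trained 2, the arrays farthest from the median of Rpl3, r was -0.15 (permutation p = 0.611), so the relation rested on those arrays. Both coefficients pool the groups; with group means removed r was -0.57.

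**Figure D4:**
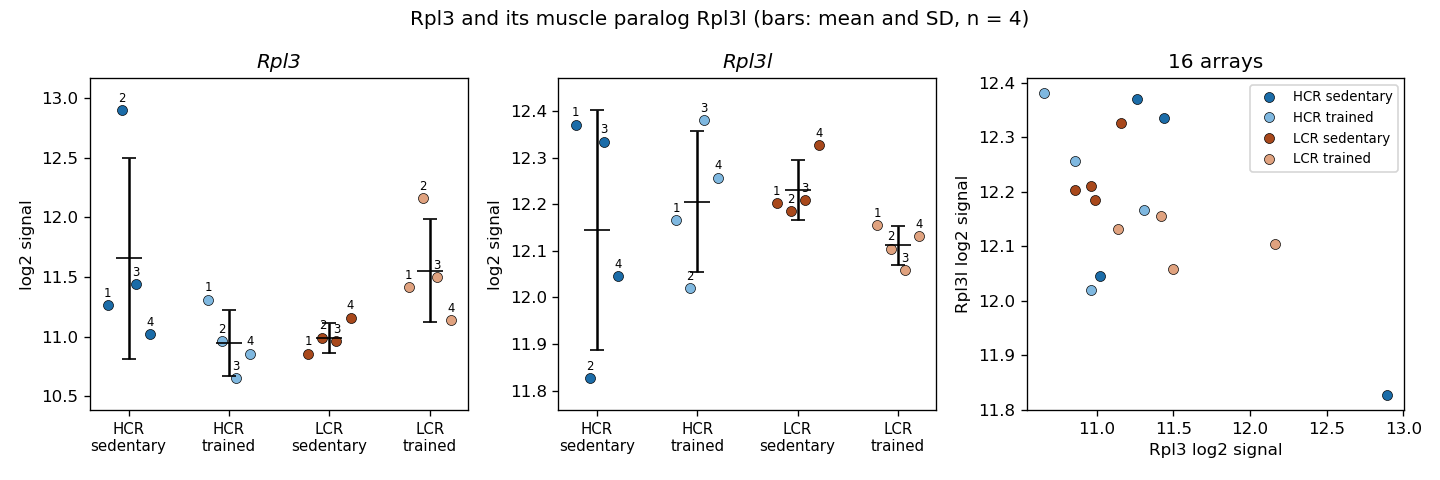
Log2 signal of Rpl3 (left) and of its paralog Rpl3l (middle) by group, with points for arrays labelled by replicate number and bars for mean and SD (n = 4), and Rpl3l against Rpl3 over the 16 arrays (right); the axes do not start at 0. HCR sedentary 2 has the highest Rpl3 (12.90) and the lowest Rpl3l (11.83), and LCR trained 2 the next highest Rpl3 (12.16).

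The other paralogs were dimmer. Rpl26l1 (mean 5.69) and Rps4y2 (mean 5.67) lay just above the 40th percentile (5.61), so background may make up much of their signal. Rps4y2, a copy within the Rps4 family, read 5.68, 6.12, 5.76 and 5.81 in HCR sedentary and 5.55, 5.61, 5.47 and 5.46 in HCR trained rats, without overlap (difference -0.32, SE 0.097, adjusted p = 0.130 in limma). Rps27l, which p53 induces, ranged from 6.01 to 6.56 in HCR sedentary and from 6.03 to 6.81 in HCR trained rats, with HCR trained 3 the highest. Rpl26l1, a near copy of Rpl26, read 5.88, 5.80, 5.86 and 5.73 in LCR sedentary and 5.57, 5.68, 5.41 and 5.58 in LCR trained rats.

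Every trained LCR rat was lower in Rpl26l1, which had the smallest adjusted p of the set in that line (difference -0.26, SE 0.090, adjusted p = 0.382 in limma). Rpl7l1, which acts in the assembly of the large subunit, differed by -0.066 in HCR and 0.10 in LCR, where the groups did not overlap. Its second probe set differed by 0.14 and -0.0030. In all, 3 members (Rpl26l1, Rpl3l and Rpl7l1) had LCR groups that did not overlap: 2 lower (4.17%, against 5.61% of all probe sets) and 1 higher (2.08%, against 2.9%). Rpl39l1 differed by 0.024 in HCR and 0.13 in LCR.

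The interaction asked whether the training difference was the same in both lines. It was lower in HCR for 41 of 48 members (85.4%, against 42.9% of all probe sets), with a median of -0.23 against 0.035. No member passed in limma, nor did any probe set (0% of 31042), while 19 members had an unadjusted p under 0.05, all lower (39.6%, against 7.5%, with 10.8% higher). The smallest adjusted p was that of Rps9 (-0.48, SE 0.15, adjusted p = 0.144), followed by Rpl13a, which takes part in translational silencing of inflammatory mRNAs (-0.54, SE 0.18, adjusted p = 0.152). Rpl26 (-0.32), Rps6 (-0.33) and Rpl3 (-1.27) were next, with adjusted p = 0.166, 0.173 and 0.173 in limma.

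The median interaction was -0.15 without HCR sedentary 2, with 10 members at an unadjusted p under 0.05. It was -0.11 without both that array and LCR trained 2, a setting chosen after seeing the data, with 3 such members lower. With the beta-actin index fitted alongside the groups the median interaction was -0.020. A difference of response between the lines was thus not shown for any single gene. The interaction was also below 0 in 19 of 20 macrophage and leukocyte markers (median -0.99) and in 14 of 14 fibroblast and matrix markers (median -1.41). It was below 0 in 12 of 13 slow fibre markers (median -0.55) and above 0 in 8 of 13 fast fibre markers (median 0.17). The part of these markers was not tested.

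Between the lines at rest, 46 of 48 members were higher in HCR than in LCR, where 48.2% of all probe sets were lower and the median of all was 0.0057. The median of the members was 0.11. No member passed in limma (0.00966% of probe sets did), and 2 had an unadjusted p under 0.05, both higher (4.17%, against 3.63%), with 0 lower (against 4.74%). Rpl35a, Rpl41 and Rpl6 did not overlap, with HCR higher (6.25%, against 2.23%); 0 had HCR lower throughout (against 2.64%). The smallest adjusted p was that of Rpl35a, which read 12.25, 12.58, 12.22 and 12.34 in HCR sedentary and 12.04, 12.22, 12.04 and 12.21 in LCR sedentary rats (0.22, SE 0.098, adjusted p = 0.591).

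This difference leaned on a single rat. Without HCR sedentary 2 the median was 0.042, Rpl35a differed by 0.14, Rps9 by 0.13 (0.23 with it), Rps4y2 by 0.12 (0.21), Rpl27a by 0.097 (0.21), Rpl26 by 0.10 (0.17) and Rpl3 by 0.25 (0.66). In the same comparison 20 of 20 macrophage and leukocyte markers (median 0.54) and 14 of 14 fibroblast and matrix markers (median 0.80) were higher; their part was not tested.

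Between trained rats the order was turned: 36 of 48 members were lower in HCR (75%, against 37.5% of all probe sets), with a median of -0.10 against 0.044. No member passed in limma, against 0.374% of probe sets, and 8 were lower at an unadjusted p under 0.05 (16.7%, against 8.2%), with 0 higher (against 11.5%). Rpl13a had the smallest adjusted p. It read 12.03, 11.66, 11.81 and 12.04 in HCR trained and 12.32, 12.59, 12.27 and 12.04 in LCR trained rats, a difference of -0.42 (SE 0.13, adjusted p = 0.102). LCR trained 4 lay level with the highest HCR rats, so the groups touched.

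Rps24, another Diamond-Blackfan gene, read 12.59, 12.45, 12.45 and 12.60 in HCR trained and 12.82, 12.93, 12.81 and 12.61 in LCR trained rats. The groups stood just apart. The difference was -0.27 (SE 0.095, adjusted p = 0.143 in limma), while its second, dim probe set differed by 0.12. Rpl5 (-0.32), Rpl21 (-0.21) and Rps6 (-0.21) followed, with adjusted p = 0.176, 0.179 and 0.180 in limma. Rpl19, Rpl26, Rpl5, Rps16 and Rps24 did not overlap, with HCR lower (10.4%, against 6%), and 0 had HCR higher throughout (against 7.61%). Without LCR trained 2 the median was -0.040, with 30 of 48 lower. With the beta-actin index fitted alongside the groups the median was 0.017, so its sign turned.

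The macrophage and leukocyte markers were lower in trained HCR than in trained LCR rats in 17 of 20 genes (median -0.43). So were the fibroblast and matrix markers in 14 of 14 (median -0.74), slow fibre markers in 13 of 13 (median -0.58) and endothelial markers in 9 of 10 (median -0.056). Fast fibre markers were higher in 8 of 13 (median 0.23). The part of these markers was not tested. Both comparisons that hold HCR trained rats use the same 4 arrays, as do both that hold HCR sedentary rats.

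Averaged over lines, trained rats were lower in 45 of 48 members (93.8%, against 56%), with a median of -0.098 against -0.012. No member passed in limma, against 0.00644% of probe sets; 13 were lower at an unadjusted p under 0.05 (27.1%, against 4.26%) and 0 higher (against 5.29%). Rpsa led (-0.24, SE 0.066, adjusted p = 0.223 in limma), followed by Rpl12 (-0.22), Rpl4 (-0.21), Rps6 (-0.17) and Rps3 (-0.18). The median training difference was -0.21 in HCR and 0.0031 in LCR, so the average came mostly from HCR. Without HCR sedentary 2, 39 members were lower, with a median of -0.068. At an unadjusted p under 0.05, 10 were then lower. Of the macrophage and leukocyte markers 10 of 20 were lower (median 0.0086) and of the fibroblast and matrix markers 11 of 14 (median -0.026); their part was not tested. Averaged over training states, the lines differed by a median of 0.012 against 0.023 for all probe sets. There 0 members passed in limma (against 0.087% of probe sets) and 0 had an unadjusted p under 0.05, where 4.53% of probe sets were lower and 5.83% higher. The smallest adjusted p in limma was 0.567, for Rpl13a (-0.15, SE 0.089). Rps28 (0.11), Rps24 (-0.098), Rpl7l1 (-0.071) and Rpl18 (0.072) came next. The median was -0.018 without HCR sedentary 2 and 0.034 without LCR trained 2.

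The genes that work with the ribosome did not all lean the same way in HCR, where 48.9% of all probe sets were lower (median 0.0044). Of 10 genes listed as elongation factors, among them the kinase gene Eef2k and Eef1e1, 8 were lower in trained rats (median -0.28). The list's mean deviation was -0.37 on HCR trained 2 and -0.11 to -0.011 on the other HCR trained arrays. In HCR sedentary rats it ranged from -0.072 to 0.18, so the groups overlapped and 1 trained rat stood apart. Eef1b2, the exchange factor of elongation factor 1, was at -0.38 (SE 0.11, adjusted p = 0.126 in limma). Eef2, the translocation factor, was at -0.32 (SE 0.098, adjusted p = 0.131). Of 31 initiation factors 17 were lower (median -0.0036). Eif1b, a start codon selection factor, was at 0.28 (SE 0.070, adjusted p = 0.0861 in limma) and Eif3d, a subunit of initiation factor 3, at -0.57 (SE 0.16, adjusted p = 0.117).

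Of 35 ribosome biogenesis genes 25 were lower (median -0.11), and their mean deviation was also lowest on HCR trained 2 (-0.18). Nop58, a core protein of the particles that methylate rRNA, was at -0.29 and Tsr1, a small subunit assembly factor, at -0.26. Of 20 genes of the mTORC1 pathway 6 were lower (median 0.093), with Lamtor5, part of the lysosomal scaffold of mTORC1, at 0.21 and Tsc1, an inhibitor of the pathway, at 0.27. This list mixes activators and inhibitors, so its count gives no direction of pathway activity. Other mRNAs known to carry the pyrimidine tract, some of them elongation factors, initiation factors or biogenesis genes counted above, were lower in 11 of 12 cases (median -0.16). The proteins of the mitochondrial ribosome, a separate machine, were higher in 66 of 73 cases (median 0.20). No gene of these lists passed in HCR training.

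In LCR, trained rats were lower in 6 of 10 elongation factors (median -0.054), 21 of 31 initiation factors (-0.047), 17 of 35 biogenesis genes (0.0032) and 16 of 20 mTORC1 genes (-0.087), with 0 passing. Of all probe sets 58.4% were lower there (median -0.024), so the elongation factor count lay near that share. The other mRNAs with the pyrimidine tract were lower in 9 of 12 cases in LCR too (median -0.12). Mitochondrial ribosomal proteins were lower in 53 of 73 cases in LCR (median -0.064). Tsc1 had the smallest p of the mTORC1 list there (-0.43, SE 0.097, adjusted p = 0.248 in limma), and its interaction was 0.71 (SE 0.14, adjusted p = 0.0966).

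**Figure D5:**
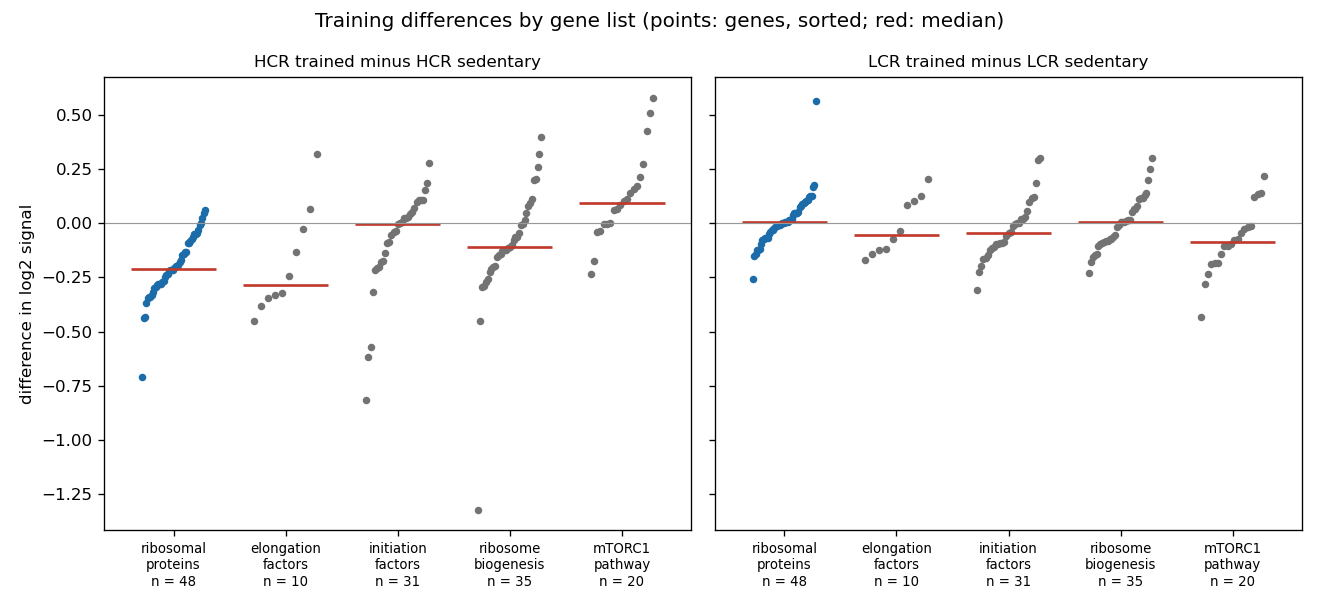
Trained minus sedentary difference in log2 signal for each gene of 5 lists, in HCR (left) and LCR (right); points are genes sorted by value and red bars are medians. In HCR the medians are -0.21 for ribosomal proteins, -0.28 for elongation factors, -0.0036 for initiation factors, -0.11 for biogenesis and 0.093 for the mTORC1 pathway.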

How the data were processed

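Biotin-labelled RNA from 20 mg of soleus per rat was measured on Affymetrix rat arrays in 16 rats, per the labels. The values are the authors' deposited log2 signals per probe set; the submitters' processing notes name RMA and limma, whose versions are not given in the sources used here. RMA equalises distributions, so a shift common to all genes is removed, and it gives no detection calls. After 57 control probe sets were left out, limma 3.58.1 in R 4.3.3 fitted 4 group means to 31042 probe sets over 16 arrays (12 residual degrees of freedom), with Benjamini-Hochberg adjustment over all of them within each comparison at a threshold of 0.05. No batch was given, and none was tested. Pairs of arrays correlated at 0.941 to 0.996, so none was a copy of another. The number of arrays limits the precision.

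Named are the 5 members of smallest p and those of largest rise and fall in each comparison. Also named are a set of key members and paralogs, and the 3 of largest and 3 of smallest spread. From a pathway list the 2 genes of smallest p are named. Some of these genes are not given a value in every comparison that picked them. Rpl23a, Rpl30, Rpl41, Rpl6, Rps13 and Rps16 were chosen after their values were seen. The members and the lists were chosen with earlier results of these data known. Permutation tests of the correlation drew 100000 resamples. Promoter sequences are RefSeq's, assembly GRCr8. The code was tested on simulated data. Alternatives were other normalizations, moderation, array weights, a replicate block, the beta-actin index as a covariate, all probe sets of a gene and leaving out arrays.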

Additional observations from a re-analysis of the deposited data

Results flagged for a closer look

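In 5 of 116 sets of 4 arrays examined, 1 array lay far from the other 3 of its group; chance gives about 5%. In HCR sedentary rats, HCR sedentary 2 stood apart for Rpl11 (13.04, the others 12.65 to 12.69), Rpl19 (13.35, the others 13.11 to 13.13) and Rpl27a (13.50, the others 13.03 to 13.09). In HCR trained rats, HCR trained 2 was low for Rpl26 (12.96, the others 13.08 to 13.10). In LCR trained rats, LCR trained 2 was high for Rpl12 (12.81, the others 12.49 to 12.51).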

How the results depend on the processing

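Under every alternative run other than array weights, 0 members passed in any of the 7 comparisons. With array weights, which gave HCR sedentary 2 a weight of 0.33 and HCR trained 3 one of 0.22, 1 member passed between trained lines (Rpl13a, adjusted p = 0.0486, range over its alternatives 0.0486 to 0.691) and 2 for training averaged over lines (Rpsa, 0.0410, range 0.0410 to 0.437, and Rpl4, 0.0484, range 0.0484 to 0.580), and the median interaction was -0.13. With the beta-actin index in the model the medians were -0.072 for training in HCR, 0.017 between trained lines and -0.020 for the interaction. Without both HCR sedentary 2 and LCR trained 2, chosen after seeing the data, the median interaction was -0.11. The cause was not tested.

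Single genes turned sign as follows. Training in HCR with all probe sets averaged gave Rpl7l1 0.038. With the beta-actin index it gave Rpl3 0.033, Rpl3l -0.013, Rpl7l1 0.052 and Rpl26l1 0.012, and Rpl3 between trained lines was 0.041. With array weights it gave Rpl3l -0.054 and Rpl26l1 0.062, and Rpl3l between sedentary lines was 0.0078. Without HCR sedentary 2 and HCR trained 3 it gave Rpl3l -0.10, Rpl26l1 0.079 and Rps27l -0.058, and Rpl3l between sedentary lines was 0.020. Without HCR sedentary 2 and LCR trained 2 it gave Rpl3l -0.045 and Rpl26l1 0.0026, with Rpl3l between sedentary lines again 0.020.

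Leaving out 1 array at a time, training in HCR ranged from -0.11 to 0.15 for Rps27l, -0.045 to 0.14 for Rpl3l, -0.098 to 0.045 for Rpl26l1 and -0.13 to 0.023 for Rpl7l1, and Rpl3l between sedentary lines from -0.16 to 0.020. The medians ranged from -0.24 to -0.15 for training in HCR, -0.052 to 0.049 in LCR, 0.042 to 0.14 between sedentary lines, -0.14 to -0.040 between trained lines and -0.26 to -0.15 for the interaction. Calls over all probe sets moved more, from 1 to 454 for training in HCR and 9 to 651 between trained lines. With the replicate number as a block, medians were unchanged (-0.21 for training in HCR) and 0 members passed. Calls over all probe sets were then 2 for training in HCR, 0 in LCR, 1 between sedentary lines and 25 between trained lines. Deviations of same-numbered arrays correlated at -0.48 to 0.57. Between HCR sedentary and LCR trained rats they were all above 0 (0.040 to 0.57), so whether the numbers pair rats was not settled.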

Other observations

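The 36 ribosomal probe sets that carry several symbols, left out of the set, were lower in trained HCR rats in 33 cases (median -0.16) and in trained LCR rats in 18 (median -0.0014), with 0 passing in limma. At an unadjusted p under 0.05, 11 were lower in HCR, where 7.24% of all probe sets were, and 1 in LCR, where 6.22% were; 0 were higher in either line (against 10.5% and 3.54%). Rack1, a scaffold protein of the small subunit outside the symbol rule, differed by -0.11 in HCR and -0.12 in LCR.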
